A study of Saccharomyces cerevisiae with 4 samples.

Results

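The 32 genes described here encode the enzymes that carry glucose to ethanol and acetate in Saccharomyces cerevisiae: the steps from hexose phosphorylation to pyruvate kinase, the pyruvate decarboxylases PDC1, PDC5 and PDC6, the alcohol dehydrogenases ADH1 to ADH5, the aldehyde dehydrogenases ALD2 to ALD6, and the acetyl-CoA synthetases ACS1 and ACS2. They were taken by systematic name from a table of 6207 genes, by their known role in the pathway, with earlier results of these data known. Each of 4 two-colour arrays set RNA of cells exposed to caspofungin at 15 ng/ml for 2 h against RNA of cells from a split of that culture left without the drug. Both sides were a mid2 mutant of strain BY4741 grown in rich medium at 24 °C, so no strain with an intact MID2 enters any value below. RNA of 2 cultures was used, each hybridised with the dyes both ways. Caspofungin RNA was in Cy3 on arrays 1 and 3 and in Cy5 on arrays 2 and 4. The labels do not pair arrays with cultures.

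Caspofungin is an echinocandin, a drug that blocks synthesis of the beta-1,3-glucan of the cell wall, and MID2 encodes a cell surface sensor of wall stress. Budding yeast given glucose ferments most of it even in air: pyruvate loses carbon dioxide to become acetaldehyde, which alcohol dehydrogenase reduces to ethanol. A side branch oxidises acetaldehyde to acetate, which acetyl-CoA synthetase activates for lipid synthesis and other uses in the cytosol. Glycolytic transcripts are among the most abundant of growing yeast, and several steps have isoenzymes encoded by closely related genes.

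The values are deposited log2 ratios, 1 per gene and array, so a value of 1 is a 2-fold ratio. A positive ratio is taken as likely higher with caspofungin, since the series is titled by that treatment and HSP12, a small stress protein gene, was at 4.73, 3.14, 3.63 and 4.08 on arrays 1 to 4, with 1 sign whichever dye held the caspofungin RNA. Neither the labels nor the values state the direction. HSP12 was also the 1 gene of the 2925 with 4 values that passed an adjusted p of 0.05 (limma on the means of the 2 cultures, 0.0342% of the genes tested, adjusted p = 0.0196). HIS3 and LEU2, which are disrupted in BY4741, were between -0.64 and -0.58 on arrays 1 and 3 and from 0.24 to 0.40 on arrays 2 and 4. Of the other genes disrupted in that strain, URA3 was blank on all arrays and MET17 had 1 value, 0.21 on array 2. Values on all 4 arrays therefore do not by themselves show that a transcript was measured. MID2 was blank on all arrays, so the deletion could not be checked. BY4741 is an a-type strain: 5 of 6 a-cell genes had 4 values, against 0 of 4 alpha-cell genes and 47.1% of all genes. Of the alpha-cell genes, MF(ALPHA)2 had values of -1.70, 0.57 and 0.47 on arrays 1, 2 and 4, and SAG1 had 1 value. Of the 5 a-cell genes with 4 values, 4 were negative on every array, beside 19.3% of all genes tested. The median of the 5 means was -0.39, against -0.13 for all genes. The lowest were AGA2, an agglutinin subunit gene, at -0.85 ± 0.43 and MFA1, an a-factor gene, at -0.76 ± 0.29 (log2, SD, n = 4). None of the 5 passed (limma, lowest adjusted p = 0.163). In these bulk cultures a smaller share of cells with a transcript and less of it per cell cannot be told apart.

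No member of the pathway passed the adjusted test (0 of 26 with 4 values, limma). The 3 pyruvate decarboxylase genes and ALD6, the cytosolic acetaldehyde dehydrogenase, had positive ratios on all 4 arrays, together with PGI1 and PFK2 of upper glycolysis. Lower glycolysis and the alcohol dehydrogenases had means close to 0 as deposited, where the median of all genes was -0.13.

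These positive-on-every-array genes were 6 of 26 members (23.1%), beside 6.87% of all genes tested. ADH3 was the 1 member negative on every array (3.85%), beside 19.3% of all genes. Both counts depend on all 4 arrays having been deposited in the same direction. With arrays 1 and 3 turned by the dye labels, 4 members were positive on every array (15.4%), beside 19.7% of all genes. In that reading 5 were negative (19.2%), beside 13.4%. With each array centred on the median of the genes tested, 11 members were positive on every array (42.3%), beside 11.0% of all genes, and 0 were negative, beside 8.72%. At an unadjusted p under 0.05 there were 6 members with a positive mean (GLK1, PFK2, PDC1, PDC5, PDC6 and ALD6), beside 6.84% of all genes, and 0 with a negative mean, beside 18.5% of all genes (limma). An absolute mean over 0.5 was found in 3 members (11.5%), GLK1, ALD4 and ALD6, beside 7.49% of all genes. The control row labelled 3XSSC was also positive on every array, at 0.26, 0.10, 0.997 and 0.44 on arrays 1 to 4. The control row labelled Arabidopsis had -0.62, 0.098, 0.13 and 0.73. Positive ratios of this size on every array thus also occurred in a row of no yeast gene.

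**Figure D1:**
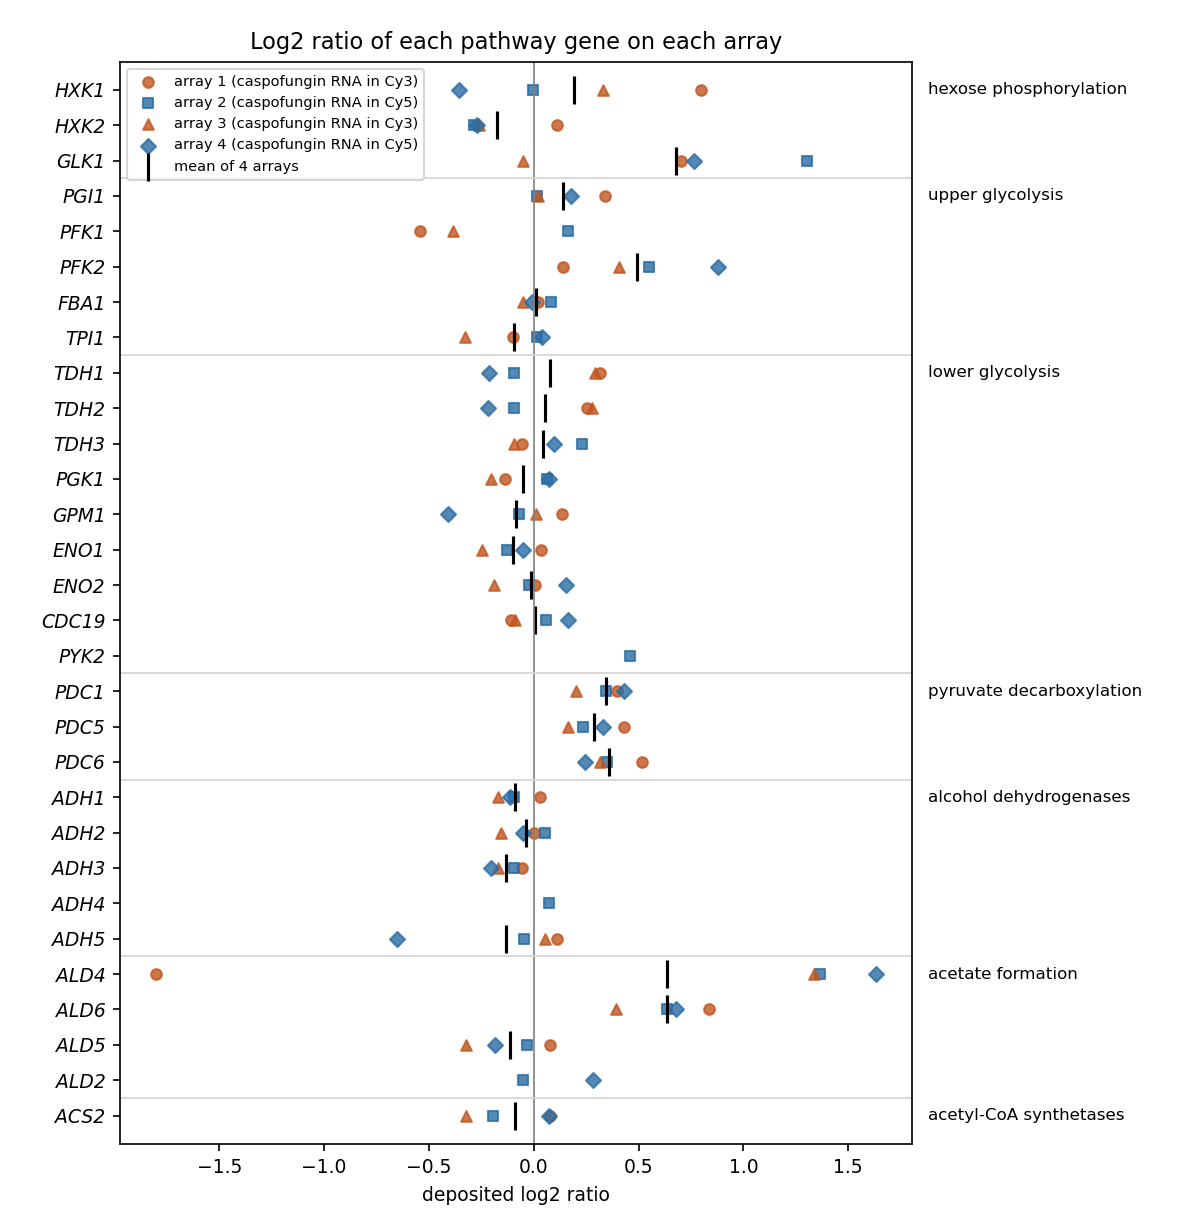
Deposited log2 ratio (x axis) of the 30 members with any value, ordered by pathway step, with 1 point per array coloured by the dye that held the caspofungin RNA and a black bar for the mean where all 4 arrays gave a value. The pyruvate decarboxylases and ALD6 lie right of 0 on every array, lower glycolysis straddles 0, and ALD4 has 1 point at -1.80 far from its other points.

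The median of the 26 members' means was 0.0086, against -0.13 for the 2899 other genes with 4 values. The deposited ratios are not centred on 0, so the difference is the clearer figure: the members' median exceeded that of other genes by 0.20, 0.073, 0.17 and 0.13 on arrays 1 to 4. Of the 26 members, 23 lay above the median of all genes. The members were also less spread between arrays, with a median SD of 0.16 against 0.32 for the other genes. An SD under 0.2 was found in 18 members (69.2%), beside 23.4% of all genes. These are descriptions, with no test over the list.

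**Figure D2:**
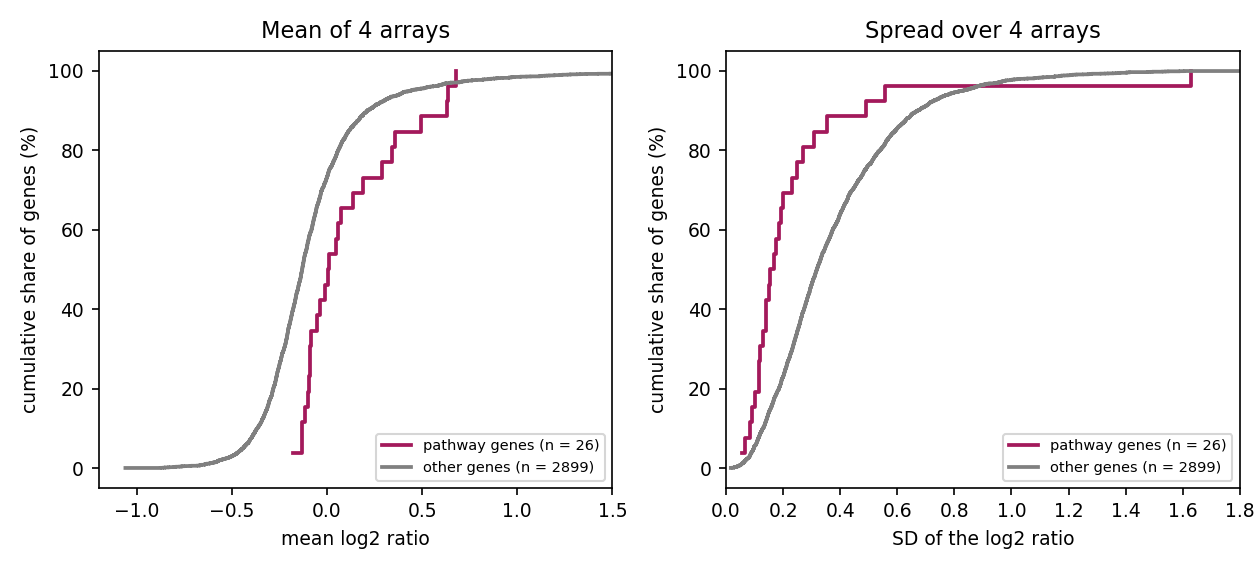
Cumulative share of genes (y axis, percent) by mean log2 ratio (left) and by SD over the 4 arrays (right), for the 26 pathway genes and the 2899 other genes. The pathway curve lies right of the other genes in most of the left panel and left of them in most of the right panel, with medians of 0.0086 against -0.13 and 0.16 against 0.32, and the 1 pathway gene at the far right of the SD panel is ALD4. The left panel stops at 1.5.

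Entry of glucose is catalysed by 3 kinases. HXK2 (YGL253W), the hexokinase that dominates on glucose and also takes part in glucose repression, had log2 ratios of 0.11, -0.29, -0.26 and -0.27 on arrays 1 to 4. Its mean was -0.18 ± 0.19 (SD, n = 4), with array 1 apart from the other 3. GLK1 (YCL040W), a glucokinase known to be more expressed off glucose and under stress, had 0.70, 1.31, -0.050 and 0.76. Its mean of 0.68 ± 0.56 (1.60-fold, limma, adjusted p = 0.183) was the highest of all members and stood 88th from the top of the 2925 genes. The mean without array 3, the 1 array with a negative value, was 0.92 ± 0.33 and passed (limma, adjusted p = 0.0205). That array was singled out by its own value, so this pass is not independent support. Leaving out arrays 1, 2 or 4 gave means of 0.67, 0.47 and 0.65, and none of these passed. HXK1 (YFR053C), the hexokinase of cells on other carbon sources, had 0.80, -0.0016, 0.33 and -0.36. Its ratio was higher on both arrays with caspofungin RNA in Cy3 than on either array with it in Cy5, and its mean was 0.19 ± 0.49.

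In upper glycolysis PFK2 (YMR205C) had the largest mean. It encodes the beta subunit of phosphofructokinase, the committed step of glycolysis, and had log2 ratios of 0.14, 0.55, 0.41 and 0.88 on arrays 1 to 4, a mean of 0.49 ± 0.31 (1.41-fold, limma, adjusted p = 0.168). PFK1 (YGR240C), the gene of the alpha subunit of the same enzyme, had -0.54, 0.16 and -0.39 on arrays 1 to 3 and no value on array 4, so it was outside the test. On the 3 arrays that measured both, PFK2 minus PFK1 was 0.68, 0.38 and 0.79. The subunit genes thus differed the same way on each of these arrays, by 0.62 ± 0.21 (SD, n = 3). PGI1 (YBR196C), phosphoglucose isomerase, had 0.34, 0.017, 0.019 and 0.18, all positive but close to 0 on 2 of the arrays. FBA1 (YKL060C), aldolase, had 0.020, 0.082, -0.051 and -0.0064. Its SD of 0.056 was the smallest of all members, and its mean was 0.011. TPI1 (YDR050C), triose phosphate isomerase, had -0.10, 0.014, -0.33 and 0.040.

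The 8 measured genes of lower glycolysis had means between -0.098 and 0.076, each smaller in size than the gene's SD over the arrays. CDC19 (YAL038W), the main pyruvate kinase, had log2 ratios of -0.11, 0.060, -0.088 and 0.16 on arrays 1 to 4 and a mean of 0.0060 ± 0.13 (SD, n = 4). PGK1 (YCR012W), phosphoglycerate kinase, had -0.14, 0.065, -0.20 and 0.074. Both were positive only on arrays 2 and 4. GPM1 (YKL152C), phosphoglycerate mutase, had 0.14, -0.072, 0.0088 and -0.41, positive on arrays 1 and 3 instead. The enolase genes had 0.034, -0.13, -0.25 and -0.052 for ENO1 (YGR254W) and 0.0081, -0.021, -0.19 and 0.15 for ENO2 (YHR174W). No gene of this stretch had 1 sign on all arrays as deposited. With each array centred, the means of these genes ran from 0.015 (ENO1) to 0.19 (TDH1). TDH3 and ENO2 were then positive on every array, as were 11.0% of all genes. PYK2 (YOR347C), the minor pyruvate kinase that glucose represses, had 1 value, 0.46 on array 2.

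The 3 glyceraldehyde-3-phosphate dehydrogenase genes did not share a pattern. TDH1 (YJL052W) had 0.32, -0.094, 0.29 and -0.21 on arrays 1 to 4, and TDH2 (YJR009C) had 0.26, -0.094, 0.28 and -0.22. These 2 genes differed by 0.020 per array on average, the smallest difference of any pair of isoenzymes. TDH3 (YGR192C), the major isoform, had -0.056, 0.23, -0.094 and 0.10, with the opposite sign on every array. TDH2 and TDH3 are the most alike in sequence of the 3, yet TDH2 read like TDH1. The means were 0.076, 0.056 and 0.045 for TDH1, TDH2 and TDH3, smaller than their SDs of 0.27, 0.25 and 0.15.

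At pyruvate decarboxylation every gene had a positive ratio on every array. PDC1 (YLR044C), the major isoform, had log2 ratios of 0.40, 0.35, 0.20 and 0.43 on arrays 1 to 4, a mean of 0.34 ± 0.10 (1.27-fold, SD, n = 4). PDC5 (YLR134W), the second isoform, had 0.43, 0.24, 0.16 and 0.33, a mean of 0.29 ± 0.12. PDC6 (YGR087C), a minor isoform known from sulfur limitation, had 0.52, 0.35, 0.31 and 0.25, a mean of 0.36 ± 0.11. Array 3 was the lowest for PDC1 and PDC5, and array 4 for PDC6. None passed the test (limma, adjusted p = 0.168, 0.185 and 0.169 for PDC1, PDC5 and PDC6).

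Differences between steps on the same array do not depend on how the array was centred. The mean of the 3 PDC genes minus the mean of the 8 lower glycolysis genes was 0.39, 0.32, 0.26 and 0.39 on arrays 1 to 4. Minus the mean of ADH1 (YOL086C), ADH2 (YMR303C), ADH3 (YMR083W) and ADH5 (YBR145W), it was 0.43, 0.36, 0.34 and 0.59. Both differences were positive on every array as deposited.

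The alcohol dehydrogenases, which act on the product of pyruvate decarboxylation, had ratios near 0 or below as deposited. With each array centred, ADH2 was positive on every array, as were 11.0% of all genes. ADH1, which makes most of the ethanol, had log2 ratios of 0.031, -0.096, -0.17 and -0.11 on arrays 1 to 4, a mean of -0.087 ± 0.085 (SD, n = 4). ADH2, which oxidises ethanol and is repressed by glucose, had 0.0027, 0.055, -0.16 and -0.054, a mean of -0.039 ± 0.091. ADH3, the mitochondrial form, had -0.059, -0.095, -0.17 and -0.20. Its mean of -0.13 ± 0.067 equals the median of all genes to 2 decimals, and with each array centred it was -0.019, with both signs. ADH5, a minor form, had 0.11, -0.046, 0.053 and -0.65, with array 4 far below the rest. ADH4 (YGL256W) had 1 value, 0.073 on array 2.

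Of the acetate branch, ALD6 (YPL061W) was the member with the smallest adjusted p. This gene of the cytosolic aldehyde dehydrogenase, the main source of acetate on glucose, had log2 ratios of 0.84, 0.64, 0.39 and 0.68 on arrays 1 to 4. The mean was 0.64 ± 0.19 (1.55-fold, SD, n = 4, limma, adjusted p = 0.163), 93rd from the top of 2925 genes. It passed where arrays 1 and 4, and 2 and 3, were taken as the cultures (limma, adjusted p = 0.0407), as did GLK1 (0.0263). Neither passed where arrays 1 and 2, and 3 and 4, were taken (limma, adjusted p = 0.149 for ALD6 and 0.158 for GLK1). The labels do not choose between these pairings. The adjusted p of ALD6 ranged from 0.0378 to 0.904 over 11 alternatives. ALD6 exceeded ALD5 (YER073W), a mitochondrial isoenzyme gene, by 0.76, 0.67, 0.71 and 0.86, a difference of 0.75 ± 0.083 that hardly moved between arrays. ALD5 itself had 0.077, -0.032, -0.32 and -0.18, and its mean was -0.12 ± 0.17.

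ALD4 (YOR374W), the major mitochondrial aldehyde dehydrogenase gene, which glucose represses, had log2 ratios of -1.80, 1.37, 1.34 and 1.63 on arrays 1 to 4. Arrays 2 to 4 lay close together and array 1 had the opposite sign at a similar size. With all 4 arrays the mean was 0.63 ± 1.63 and did not pass (limma, adjusted p = 0.424). Without array 1 it was 1.44 ± 0.16 (2.72-fold, n = 3) and passed (limma, adjusted p = 0.00428). Array 1 was singled out by its own value, so this pass is not independent support. With 1 array left out, 1 culture rests on a single array and the dyes are unbalanced. Leaving out arrays 2, 3 or 4 gave means of 0.39, 0.40 and 0.30. ALD2 (YMR170C) and ALD3 (YMR169C), neighbouring stress-responsive genes, gave -0.051 and 0.28 on arrays 2 and 4 for ALD2 and no value for ALD3.

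Acetyl-CoA synthesis is represented by ACS2 (YLR153C), the isoform needed on glucose, with log2 ratios of 0.078, -0.20, -0.32 and 0.072 on arrays 1 to 4, a mean of -0.092 ± 0.20 (SD, n = 4). ACS1 (YAL054C), the isoform that glucose represses, was blank on all arrays. The 6 members without 4 values (PFK1, PYK2, ADH4, ALD2, ALD3 and ACS1) make up 18.8% of the members, against 52.9% of all genes in the table.

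**Figure D3:**
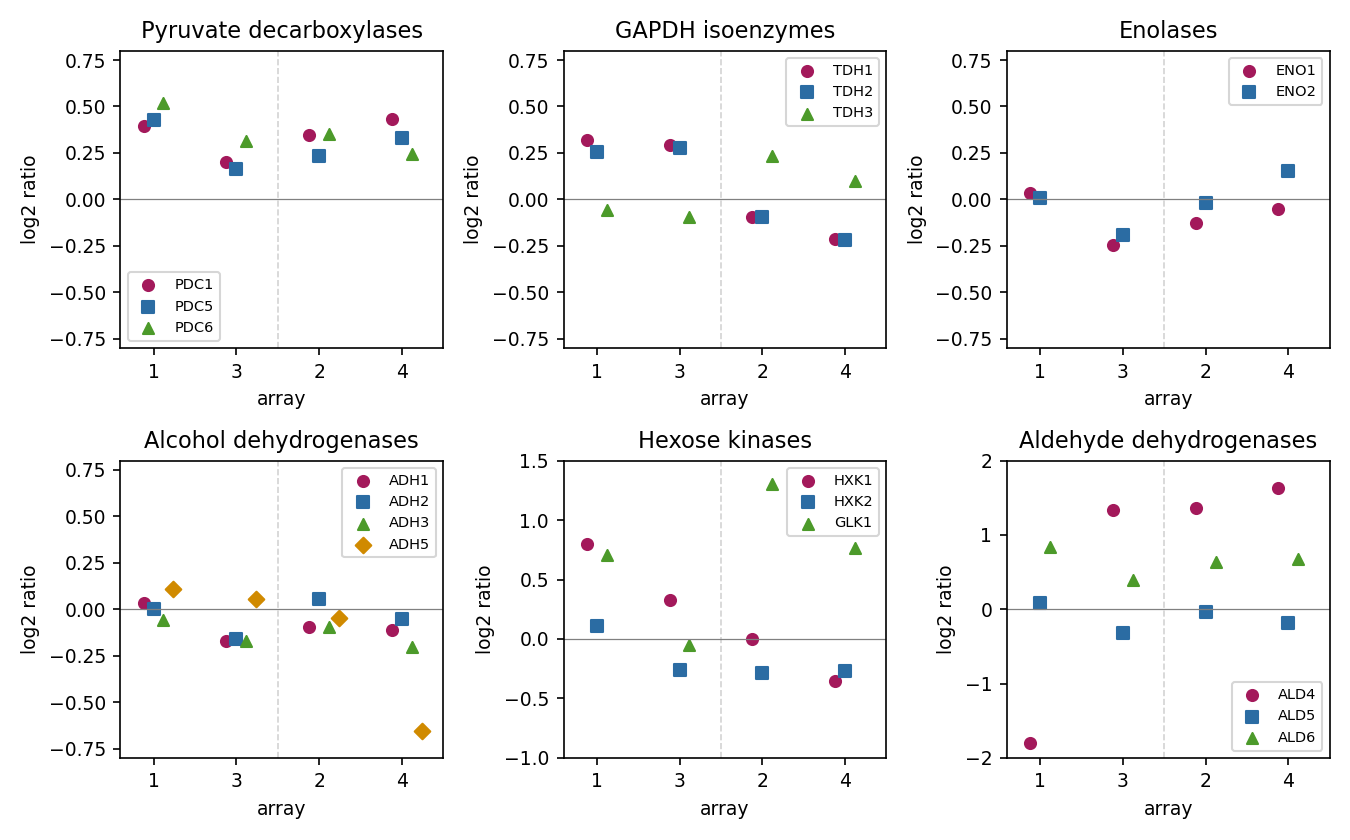
Log2 ratio (y axis) of isoenzyme genes on each array (x axis), with the 2 arrays that carried caspofungin RNA in Cy3 left of the dashed line and the other 2 right of it. The y scale differs for the hexose kinases and the aldehyde dehydrogenases. The PDC genes stay between 0.16 and 0.52, TDH1 and TDH2 overlap and change sign with the dyes, and ALD4 at -1.80 on array 1 lies opposite to its other 3 points.

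Genes set in the same family mostly lay closer to each other than other pairs of members did. GLK1 and ALD6 were each set as a family of their own. Their pairs with HXK1, HXK2, ALD4 and ALD5 therefore counted as different families, though ALD6 and ALD5 differed by 0.75. The mean absolute difference on the same array had a median of 0.11 over 15 pairs within a family and 0.32 over 310 pairs of different families. The within-family pairs ran from 0.020 for TDH1 and TDH2 to 1.69 for ALD4 and ALD5. PDC1 and PDC5 differed by 0.071, ADH1 and ADH3 by 0.045, and ENO1 and ENO2 by 0.098. Related genes can share signal on an array. The probe sequences were not used here, so it was not tested how much of each value belongs to its own gene, and the PDC, TDH, ENO and ADH rows are uncertain as separate measurements.

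A dye part was computed for each gene as the difference between the mean of arrays 2 and 4 and the mean of arrays 1 and 3, divided by 2. Its median absolute size was 0.090 in the members and 0.20 in the other genes. The median absolute mean was 0.11 in the members and 0.18 in the other genes. Signs followed the dyes in 9 members: HXK1, TDH1, TDH2, GPM1 and ADH5 were positive on arrays 1 and 3 (19.2% of members, beside 13.4% of all genes), and TPI1, TDH3, PGK1 and CDC19 on arrays 2 and 4 (15.4%, beside 19.7%). For ALD6, PDC1, PDC5 and PDC6 the dye part was 0.022, 0.045, -0.0063 and -0.059, each smaller than the gene's mean. For ALD4 it was 0.87, set by array 1. No gene passed a test of the dye part (0.0% of 2925 genes, limma, 0 members, with 944 genes at an unadjusted p under 0.05 and a lowest adjusted p of 0.0763). For the mean, 741 genes had an unadjusted p under 0.05 (limma). Over all genes, arrays 1 and 3 correlated at r = 0.65 and arrays 2 and 4 at 0.79. Each of these pairs shares a dye order. Pairs with the dyes exchanged gave r from -0.15 to 0.14. For all 26 members, arrays 1 and 3 gave r = -0.34 and arrays 2 and 4 gave 0.87, and exchanged pairs gave -0.38 to 0.66. Without ALD4, left out for its own value on array 1, pairs sharing a dye order gave 0.70 and 0.80. Exchanged pairs then gave 0.31 to 0.56. The absence of calls therefore does not show that dye effects were small across the genes.

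**Figure D4:**
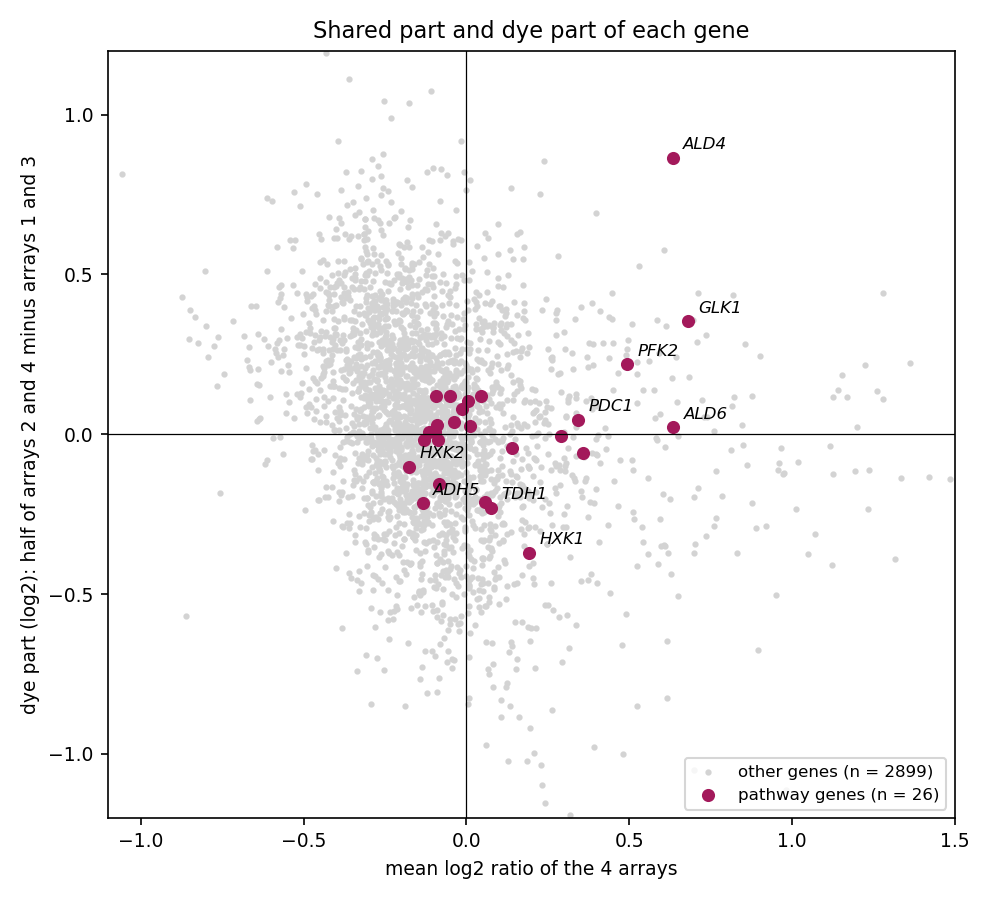
Mean log2 ratio of the 4 arrays (x axis) and dye part (y axis, log2) of each gene with 4 values, with 26 pathway genes in colour and the 2899 other genes in grey. ALD6 and PDC1 lie right of 0 with a dye part near 0, HXK1 and TDH1 lie below the horizontal line, and ALD4 lies highest of the pathway genes. Other genes beyond the axes are not drawn.

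The dye part matters for the reading of the sign. If the deposited ratios were Cy5 over Cy3, the values of arrays 1 and 3 would have to be turned, and the mean of each gene would become its dye part. ALD6 would then have a mean of 0.022, PDC1 0.045 and GLK1 0.35, ALD4 would have 0.87, and the members' median would lie 0.036 below that of other genes. No member passed in that reading either (0 of 26, limma). HSP12 would have a mean of -0.28 with both signs.

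**Figure D5:**
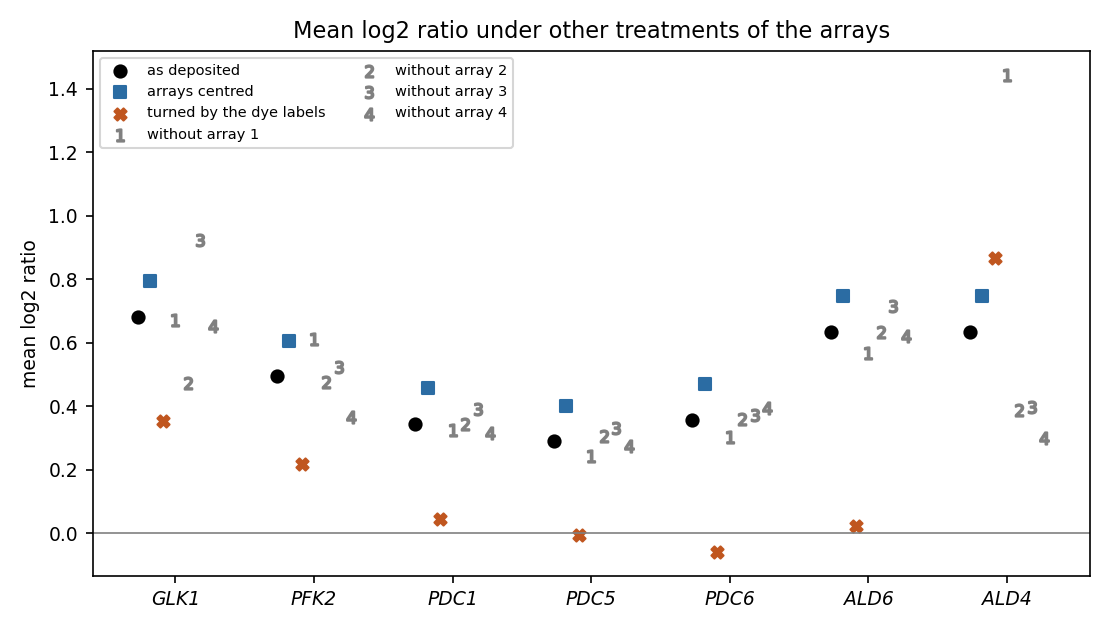
Mean log2 ratio (y axis) of 7 members as deposited, with arrays centred, with arrays 1 and 3 turned by the dye labels, and without each array in turn (numbers 1 to 4). Centring adds 0.11 to each mean, turning brings ALD6 and the PDC genes close to 0, and leaving out array 1 takes ALD4 to 1.44.

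The branches that leave the pathway were examined through lists of neighbouring genes, chosen with earlier results of these data known. No gene of these lists passed in either direction (0 of 29 with 4 values in 6 lists, limma). At pyruvate, PYC2 and PYC1 encode pyruvate carboxylase, which feeds oxaloacetate. PYC2 had log2 ratios of 0.36, 0.49, 0.75 and 0.29 on arrays 1 to 4, a mean of 0.47 ± 0.20 (1.39-fold, SD, n = 4, limma, adjusted p = 0.163). PYC1 had -0.024, 0.15, 0.95 and 0.52. FBP1 and PCK1, the gluconeogenic genes of that list, were blank.

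The glycerol branch was led by GPD1, glycerol-3-phosphate dehydrogenase, with log2 ratios of 0.99, 0.64, 0.073 and 0.62 on arrays 1 to 4 and a mean of 0.58 ± 0.38 (SD, n = 4, limma, adjusted p = 0.173). Its paralogue GPD2 had -0.35, 0.013, -0.42 and 0.25. The median of the 4 measured genes of this branch was -0.022.

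The 8 pyruvate dehydrogenase and pyruvate carrier genes had a median of -0.094, with PDX1, a structural component of the complex, at -0.18 ± 0.14 and PDA1, which encodes its E1 alpha subunit, at -0.16 ± 0.41 (log2, SD, n = 4). PDX1 was the 1 of them with a single sign, negative, on all arrays. Among glycolysis regulators MIG1, the repressor of glucose-repressed genes, had -0.20, -0.13, -0.24 and -0.36, and TYE7, an activator of glycolytic genes, had 0.75, -0.43, -0.25 and -0.25. GCR1 and RAP1, the best known activators, were blank. Of 13 glucose-repressed genes, 6 had 4 values, with a median of -0.16 and none with 1 sign on all arrays. Of all genes tested, 6.87% were positive on every array and 19.3% negative. CTA1, peroxisomal catalase, had a mean of -0.35 ± 0.30, and JEN1, the lactate permease, -0.22 ± 0.48. The 6 minor paralogues with 4 values had a median of 0.078. Those of largest absolute mean, ERR1 and ERR2, which resemble enolase, had means of -0.36 ± 0.35 and -0.30 ± 0.43. How far the ERR1 and ERR2 rows are separate measurements was not tested. Both were lower on arrays 2 and 4, at -0.56 and -0.74 for ERR1 and -0.59 and -0.75 for ERR2, than on arrays 1 and 3.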

How the data were processed

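RNA of a mid2 mutant with and without caspofungin was compared on 4 two-colour arrays of 2 cultures. The authors deposited log2 ratios, 1 per gene and array. The base follows from the numbers, since taking 2 to their power gave 4-decimal figures (within 2e-06) in 100% of cells, and base e did so in 4.33%. Not given in the sources used here are the software, background correction, normalization, centring, direction of the ratios and genome build. Values were present for 3215, 4346, 3228 and 3538 genes on arrays 1 to 4, and the number of arrays limits the precision. No column was left unused (0). Names came from the RefSeq table of assembly R64, which matched all 32 members and 5654 genes.

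The test of genes with 4 values was a limma fit (version 3.58.1, R 4.3.3) to the means of the 2 cultures, against 0. Both pairings of opposite dye orientations were fitted, and the larger p was adjusted by Benjamini-Hochberg over all 2925 genes. The p-values rest on 2 cultures. An SD over 4 arrays mixes cultures, dyes and technical error. The members and lists were chosen with earlier results of these data known. All members are named, with the 2 genes of largest absolute mean per neighbouring list, HSP12, HIS3, LEU2 and MID2. Blank genes and genes of small counts were named in addition.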

Additional observations from a re-analysis of the deposited data

Results flagged for a closer look

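In 3 genes 1 array stood apart from the other 3 by Dixon's ratio, above its 95% critical value for 4 values, and in each it was array 1. ALD4 read -1.80 there against 1.34 to 1.63 on the other arrays (ratio 0.914). HXK2 read 0.11 there against -0.29 to -0.26 (ratio 0.942), and TYE7 read 0.75 against -0.43 to -0.25 (ratio 0.849). Chance flags about 1 in 20 genes, and 43 genes were examined, so 3 flags are near that rate. Whether anything sets array 1 apart in these genes was not tested.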

How the results depend on the processing

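The count of 1 gene past the threshold was 109 with the 4 arrays as replicates and a dye term. That setting counts the dye swaps of a culture as replicates, though there were 2 cultures. The count was 148 with arrays 1 and 4, and 2 and 3, as the cultures, and 1 with arrays 1 and 2, and 3 and 4. Centring the arrays gave 10, centring and scaling 48, and leaving out an array 1 to 61. It was 0 with genes on at least 3 arrays (680 at an unadjusted p under 0.05, limma) and 0 with ratios turned by the dye labels (944). Members past the threshold were 0 as reported, and 0 with arrays 1 and 2, and 3 and 4, as the cultures. They were 2 with arrays 1 and 4, and 2 and 3, as the cultures (GLK1 and ALD6), and 1 with a dye term (ALD6). Centring and scaling gave 1 (ALD6), and leaving out an array 0 to 1 (ALD4 without array 1, GLK1 without array 3). The adjusted p of ALD6 ran from 0.0378 to 0.904 over 11 alternatives and that of GLK1 from 0.0205 to 0.518. Members positive on every array were 6 as reported, 11 with arrays centred or also scaled, where 11.0% of all genes were, 4 turned by the dye labels (19.7% of all genes), and 6 to 7 when an array was left out (8.0% to 10.1% of all genes). Members negative on every array were 1 as reported, 0 with arrays centred or also scaled, where 8.72% of all genes were, 5 turned by the dye labels (13.4% of all genes), and 1 to 5 when an array was left out (23.4% to 30.6% of all genes, with the 5 beside 30.6% without array 1). The members' median exceeded that of other genes by 0.14, by 0.12 to 0.16 when an array was left out, and lay at -0.036 when turned by the dye labels. The mean of HXK2, GLK1, PFK2, PDC1, ADH3, ALD4 and ALD6 kept its sign in all 11 alternatives. The dye term, either choice of cultures and genes on at least 3 arrays leave these means unchanged. Only centring, scaling, turning and leaving out an array could have changed a sign. That of 13 members changed sign when turned by the dye labels, and of 8 when arrays were centred, with none of these past the threshold. The cause of the lost or gained calls was not tested.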
